A study of Mus musculus with 125 samples.

Results

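The genes described here encode the cytosolic ribosomal proteins of the mouse. They were chosen by their symbols alone, as those of the form Rpl, Rps or Rplp and a number, with the endings that mark like-named forms. The rule found 86 of the 43421 genes measured, of which 53 belong to the large and 33 to the small subunit. Of these, 85 had enough counts to be tested, and 83 reached 10 CPM, counts scaled to a total of 1000000 per embryo, on average over the embryos kept. The gene not tested was Rps12l1.

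RNA was sequenced from single mouse embryos at the 2-cell stage to compare zygotes that had 1 pronucleus (1PN) with zygotes that had 2 separate pronuclei (2PN). Embryos came from the cross C57BL/6 x JF1/Ms, called BxJ here, and from JF1/Ms x C57BL/6, called JxB. C57BL/6 is the inbred strain of the reference genome and JF1/Ms an inbred strain of Japanese origin, and the labels do not say which was the mother. In both crosses some embryos scored as 1PN carry an in silico label of parthenote and are called uniparental 1PN here. The label is read here as no paternal genome found in their reads. "1PN" alone means the others. BxJ gave 43 2PN, 11 1PN and 8 uniparental 1PN embryos. JxB gave 21 2PN, 3 1PN and 4 uniparental 1PN embryos, the last numbered 1, 2, 3 and 7. The seventh group held 31 C57BL/6 parthenotes, which are eggs that develop without sperm. According to the protocol, whose text is the same for all libraries and names C57BL/6 and JF1/Ms hybrids, zygotes were picked at 10 h, had their second polar body taken off, and were collected at 34 h as 2-cell embryos. No age of any animal and no agent that activated the parthenotes is stated in these sources.

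The 121 embryos compared held from 533276 to 4887274 counts, with a median of 3392406. By group the median was lowest in JxB 2PN embryos (2522056) and highest in BxJ 2PN embryos (3867740). Of the 4 JxB uniparental embryos, numbers 1 and 2 stood apart. The summed level of 12 oocyte genes (zona pellucida proteins, egg growth factors and other egg transcripts) was 27795 and 23729 CPM in them, against 501 to 7035 CPM in JxB 2PN embryos. The summed level of 12 genes that mark the 2-cell stage was 53.7 and 267 CPM, against 1716 to 10451 CPM in JxB 2PN embryos. BxJ uniparental embryo 10 also had a high oocyte gene sum (26047 CPM), with 1837 CPM of the 2-cell genes. The main counts of members called that rest on these embryos are given with and without them. Other counts, such as those by subunit, X chromosome or promoter and those shared between crosses, are given only with them. Of 13 cumulus and granulosa cell markers, 1 to 9 were at 0 throughout a group, Fshr among them in 6 of the 7 groups, and the list's sum reached at most 253 CPM.

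A ribosome joins a large and a small subunit, each built from ribosomal RNA and many proteins that are needed in near equal numbers. The mRNAs of these proteins start with a cytosine followed by an unbroken run of pyrimidines, the TOP motif, through which LARP1 and the mTOR kinase hold or release their translation. In the mouse the egg brings a store of ribosomes and mRNA, much of the maternal mRNA is degraded around the 2-cell stage, and the embryo's genome starts to be transcribed in earnest there.

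Promoter windows were held in a RefSeq table (GRCm38.p6, from 250 bases before to 50 bases after each annotated start) for 63 of the 86 genes. The 30 bases given for each gene lie around the longest run of C and T between 50 bases before and 50 bases after the start. They are given first for 4 members that span long and short runs, then for 4 pairs of a parent gene and its like-named form, which the results set side by side. Capitals mark the run, and the sequences are read 5′ to 3′ on the gene's own strand.
Rps6, chr4:86857349-86857378, minus strand: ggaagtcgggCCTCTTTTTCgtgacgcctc
Rpl15, chr14:18270967-18270996, minus strand: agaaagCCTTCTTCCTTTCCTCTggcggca
Rpl19, chr11:98026944-98026973, plus strand: gcggcccacaagCTCTTTCCTTTCgctgct
Rps13, chr7:116334161-116334190, minus strand: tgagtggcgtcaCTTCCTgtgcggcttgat
Rps27, chr3:90213631-90213660, minus strand: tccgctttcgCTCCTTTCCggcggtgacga
Rps27l, chr9:66946054-66946083, plus strand: cccgcctccaCTCCTCTCCactcctccccg
Rpl22, chr4:152325679-152325708, plus strand: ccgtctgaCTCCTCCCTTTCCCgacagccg
Rpl22l1, chr3:28805499-28805528, plus strand: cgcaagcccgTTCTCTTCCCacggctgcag
Rpl39, chrX:37085173-37085202, minus strand: gttcttccggtcccggCCTTTCTCTTCTCC
Rpl39l, chr16:10170192-10170221, plus strand: acacccactgCCTCTCCCTagctcccaggc
Rpl10, chrX:74270836-74270865, plus strand: cgtgagcaggcgtgggagcgTCTCTTTTCC
Rpl10l, chr12:66284428-66284457, minus strand: cagtctctatgaTTCCCgcaaggcttgatg
A run of at least 10 C or T was found in this window for 44 of the 63 genes (69.8%) and for 20.6% of the 27025 genes of the table. The run in Rpl15 was 17 bases long, in Rpl22 and Rpl39 14, in Rpl19 12 and in Rps6, Rpl10 and Rpl22l1 10. It was 9 in Rps27, Rps27l and Rpl39l, 6 in Rps13 and 5 in Rpl10l. The letters CCGGAA, searched on both strands of the whole window, were in 54.0% of the members' promoters and in 16.7% of all. TATAAA was in 12.7% and 15.7%. A run of pyrimidines is a description of these letters, and a TOP start was not mapped.

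All the levels below are CPM, a gene's share of an embryo's counts, so fewer ribosomal protein transcripts and more of all other transcripts cannot be told apart. CPM is not divided by gene length, so levels are compared within a gene only. The mean of log2(CPM + 1) over the 86 genes gave 1 value per embryo. In BxJ it was 7.20 ± 0.29 (SD, n = 43) in 2PN embryos, with a lowest, median and highest value of 6.12, 7.30 and 7.58. It was 7.08 ± 0.34 (SD, n = 11) in 1PN embryos, from 6.23 to 7.38. In BxJ uniparental 1PN embryos it was 6.27 ± 0.72 (SD, n = 8), with a lowest, median and highest value of 4.83, 6.35 and 7.20. All 8 uniparental embryos lay below the 2PN median and 2 below the lowest 2PN embryo, and the groups overlapped, since 16 of 43 2PN embryos were below the highest uniparental one. The C57BL/6 parthenotes had 6.54 ± 0.39 (SD, n = 31), with 5.41, 6.6 and 7.37 as lowest, median and highest. Of them 30 of 31 lay below the BxJ 2PN median and 3 below its lowest embryo.

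In JxB the 2PN embryos spread more widely, 6.96 ± 0.93 (SD, n = 21), from 4.29 over a median of 7.33 to 7.90. The JxB 1PN embryos 4, 5 and 6 had 7.47, 7.74 and 7.17. The JxB uniparental embryos 1, 2, 3 and 7 had 2.54, 3.09, 6.22 and 4.87. All 4 were below the 2PN median, and embryos 1 and 2 were below all 21 2PN embryos. As a share of all counts, the 86 genes held 2.36% ± 0.453 (SD, n = 43) in BxJ 2PN, 2.20% ± 0.268 (SD, n = 11) in BxJ 1PN, 1.32% ± 0.525 (SD, n = 8) in BxJ uniparental and 1.49% ± 0.350 (SD, n = 31) in parthenote embryos. The share was 2.24% ± 0.807 (SD, n = 21) in JxB 2PN, 2.68% ± 0.427 (SD, n = 3) in JxB 1PN and 0.594% ± 0.525 (SD, n = 4) in JxB uniparental embryos. Ordered by the mean of log2(CPM + 1), the groups ran JxB 1PN, BxJ 2PN, BxJ 1PN, JxB 2PN, parthenotes, BxJ uniparental and JxB uniparental. On that scale neighbours in the order differed by less than the larger SD of the pair, except BxJ and JxB uniparental embryos.

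**Figure D1:**
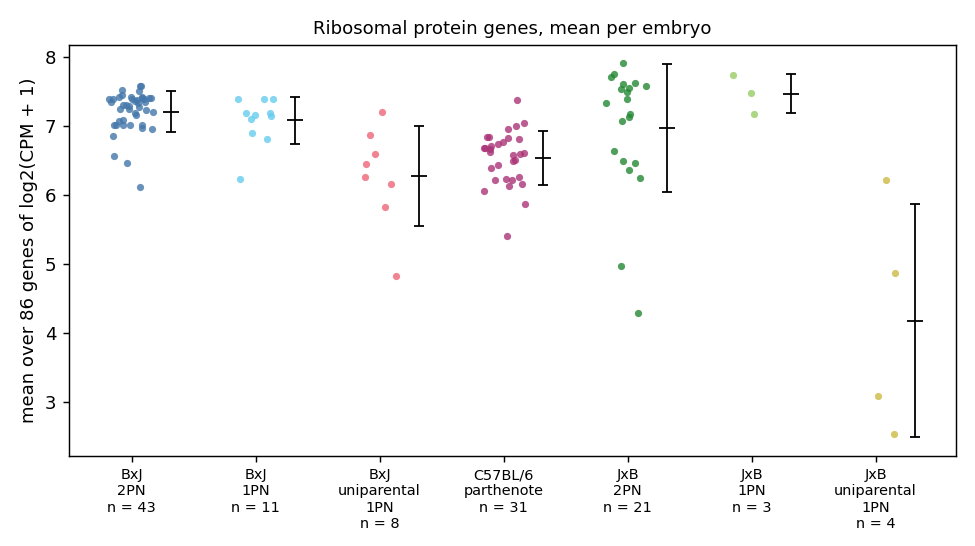
Mean of log2(CPM + 1) over the 86 ribosomal protein genes, 1 point per embryo, by group; the bar beside each group is the mean with 1 SD. The 8 BxJ uniparental embryos and 30 of the 31 parthenotes lie below the BxJ 2PN median of 7.30, and JxB uniparental embryos 1 and 2 lie below every other embryo shown.

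In BxJ and in the parthenotes the distance to 2PN embryos was larger over small than over large subunit genes. In BxJ the uniparental mean was 0.84 below the 2PN mean over large subunit genes and 1.09 below over small subunit genes (log2 scale). In the parthenotes the distances were 0.56 and 0.84. The large minus small difference within an embryo was -0.73 ± 0.08 (SD, n = 43) in BxJ 2PN and -0.73 ± 0.08 (SD, n = 11) in BxJ 1PN embryos. It was -0.49 ± 0.12 (SD, n = 8), from -0.62 to -0.29, in BxJ uniparental embryos, and -0.46 ± 0.14 (SD, n = 31), from -0.78 to 0.05, in parthenotes. Of the 8 uniparental embryos 7, and of the 31 parthenotes 26, lay above the highest of the 43 2PN embryos (-0.58). Rps4l, a single small subunit gene, carried part of this: without it the means were -0.74 ± 0.09, -0.57 ± 0.13 and -0.55 ± 0.14 in 2PN, uniparental and parthenote embryos, and 4 of 8 and 21 of 31 lay above the highest 2PN embryo. With medians over the genes in place of means the difference was -0.91 ± 0.14 in 2PN, -1.04 ± 0.12 in 1PN, -0.67 ± 0.21 in uniparental and -0.66 ± 0.21 in parthenote embryos, and 3 of 8 and 15 of 31 lay above the highest 2PN embryo. In JxB the difference was -0.69 ± 0.18 (SD, n = 21) in 2PN embryos and -0.35, -0.57, -0.72 and -0.91 in uniparental embryos 1, 2, 3 and 7, on both sides of the 2PN median of -0.69. These values are descriptions of the embryos and were given no p.

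**Figure D2:**
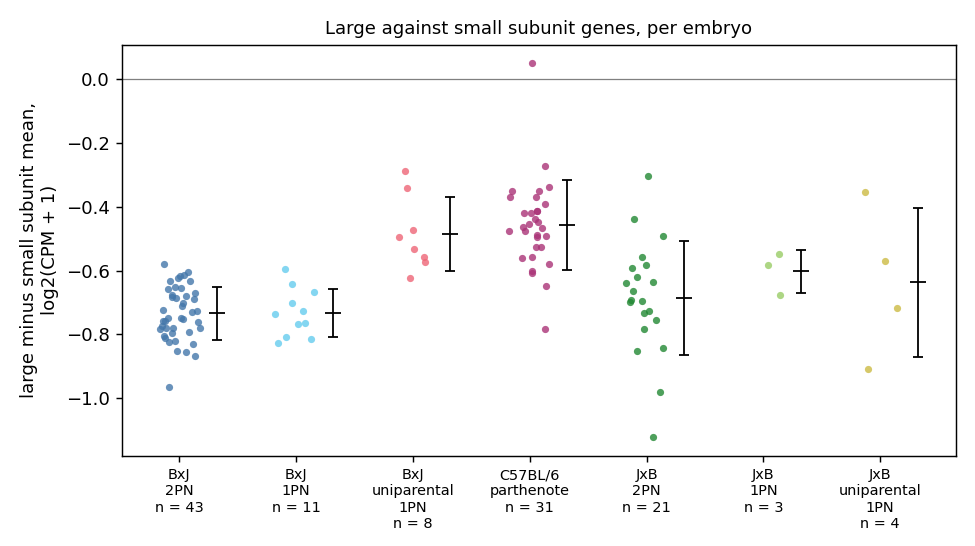
Mean log2(CPM + 1) of the 53 large subunit genes minus that of the 33 small subunit genes, 1 point per embryo, by group; bars are the mean with 1 SD and the grey line marks 0. BxJ uniparental embryos (-0.49) and parthenotes (-0.46) sit above the BxJ 2PN and 1PN embryos (both -0.73), while the JxB groups overlap.

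Gene by gene, edgeR's quasi-likelihood test was run on all genes with enough counts, with Benjamini-Hochberg adjustment over all of them and a threshold of 0.05. Nothing in the labels says that the embryos came from separate matings, so the p-values measure the spread between these embryos only. Each fit used 1 estimate of a gene's spread for all its groups, so small groups borrowed that of larger ones. The SD of the ribosomal protein mean was 0.29 in BxJ 2PN and 1.68 in the 4 JxB uniparental embryos. The p-values of JxB uniparental comparisons reflect that wider spread only in part. Uniparental embryos of a cross lack the father's strain along with the paternal genome, so within a cross these cannot be told apart. The strain that remains also differs between the crosses. With both crosses in the fit, 77 of the 85 genes were lower in uniparental 1PN than in 2PN embryos and 0 were higher. Among all 22785 genes tested 15.8% were lower and 18.3% higher. Among the 9440 genes that averaged 10 CPM or more, 27.5% were lower and 20.9% higher, and 76 of the 83 members at that level were lower. Without JxB uniparental embryos 1 and 2, 71 of the 85 were lower, against 12.8% of all genes. Without these and BxJ uniparental embryo 10, 59 were lower (median -0.95), against 9.95% of all genes. The median log2 fold change was -1.23 over the members, a 2.35-fold difference, and 0.19 over all genes. Of the large subunit genes 47 of 53 were lower (median -1.20) and of the small subunit genes 30 of 32 (median -1.44).

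The gene most lowered was Rps4l, an autosomal form of the X-linked small subunit gene Rps4x. Rps4l (chr6:148354656-148355596, GRCm38.p6) had 11.8, 193 and 426 CPM as lowest, median and highest of the 43 BxJ 2PN embryos. It had 7.99, 14.4, 17.4, 18.3, 39.4, 2.00, 21 and 14.2 CPM in the 8 BxJ uniparental embryos 10, 11, 14, 18, 19, 4, 7 and 22. All 8 were below the 2PN median, and 2 of the 43 2PN embryos were below the highest of them. In JxB the uniparental embryos 1, 2, 3 and 7 had 22, 103, 45.7 and 9.98 CPM, against 18.2, 227 and 509 CPM as lowest, median and highest of the 21 2PN embryos. All 4 were below that median and 6 2PN embryos were below the highest of them. The fold change over both crosses was -3.14 ± 0.378 (log2, SE; edgeR adjusted p = 5.16e-10). Of its values 4.96% were not whole numbers against 52.1% at the median of the members. The rule that made such values is not stated in the labels. Ribosomal protein genes have many near-identical processed pseudogenes, and how reads shared with them were counted was not tested, so the level of a single member is uncertain. Rps4x itself was also lower, by a smaller step (-1.07 ± 0.325, edgeR adjusted p = 0.00702).

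Next came Rpl3, a large subunit protein that reaches towards the peptidyl transferase centre, at -2.22 ± 0.408 (edgeR adjusted p = 1.53e-05). Rpl3 had 10.2, 50.7 and 176 CPM as lowest, median and highest in BxJ 2PN embryos and 3.81, 20.4 and 32.1 CPM in BxJ uniparental embryos. In JxB it had 0, 5.82, 13.7 and 2.00 CPM in uniparental embryos 1, 2, 3 and 7, all of them under the lowest of the 21 2PN embryos, at 14 CPM. In JxB, Rpl3 was the only member of 86 whose uniparental embryos lay below all 2PN embryos, which held for 0.656% of all genes tested. For 1 of 86 genes this is near that share. Rpl19 (-1.95 ± 0.329, edgeR adjusted p = 3.09e-06) and Rps13 (-1.94 ± 0.303, edgeR adjusted p = 6.5e-07) followed.

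By role, the stalk proteins that recruit the translation factors were all lower, Rplp0 (-0.81 ± 0.226), Rplp1 (-1.0 ± 0.252) and Rplp2 (-0.80 ± 0.187). Rpl5 (-1.20) and Rpl11 (-1.36), which enter the large subunit together with an RNA of their own and can hold MDM2 when free, were both lower. Rps27a (-1.50), made as a fusion with ubiquitin, was lower. The 4 X-linked members, Rpl10, Rpl36a, Rpl39 and Rps4x, were lower in all 4 cases, with fold changes from -1.28 to -1.0. Of the ribosomal proteins whose symbols lie outside the pattern, Rack1 (-1.67), Fau (-1.44), Rpl36al (-1.41) and Rpsa (-1.23) were lower as well.

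Like-named forms are second copies, often with their own tissue pattern, such as Rpl3l in muscle and Rpl10l and Rpl39l in the male germ line. Of 9 tested, 6 were lower: Rps4l, Rpl7l1 (-1.73), Rpl22l1 (-1.20, edgeR adjusted p = 0.0489), Rpl39l (-1.02), Rpl10l (-0.98) and Rpl32l (-0.98). Their 9 parent genes were all lower, with a median of -1.24. Without JxB uniparental embryos 1 and 2, 4 of the 9 forms and 9 of the 9 parents were lower, and without BxJ uniparental embryo 10 as well, 2 and 6. Of genes that averaged 10 CPM or more, 23.4% and 18.3% were lower in those fits. Rpl3l did not pass (-0.73 ± 0.329, edgeR adjusted p = 0.0739), nor did Rpl6l (-0.77). Nor did Rps27l, known as a p53 target, with -0.04 ± 0.186 (edgeR adjusted p = 0.886), while its parent Rps27 was lower (-1.64 ± 0.400, edgeR adjusted p = 0.000811). In BxJ Rps27 had 51.6, 176 and 382 CPM as lowest, median and highest in 2PN embryos and 3.11, 90.6 and 190 CPM in uniparental embryos. For Rps27l the values were 285, 450 and 844 CPM in 2PN embryos and 370, 456 and 1035 CPM in uniparental embryos. The Rps27l ranges overlapped almost fully, and its sign changed to 0.16 with the size factors of DESeq2.

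Besides Rpl3l, Rpl6l and Rps27l, the members that did not pass were Rpl21 (-0.61), Rpl7a (-0.55), Rpl31 (-0.53, edgeR adjusted p = 0.0539), Rps12 (-0.02) and Rpl17 (0.41). Grouped by the promoter, 41 of the 44 genes with a run of at least 10 were lower (median -1.23) and 17 of the 19 without such a run (median -1.20). Over all genes tested with a window the shares lower were 15.7% and 16.2%.

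**Figure D3:**
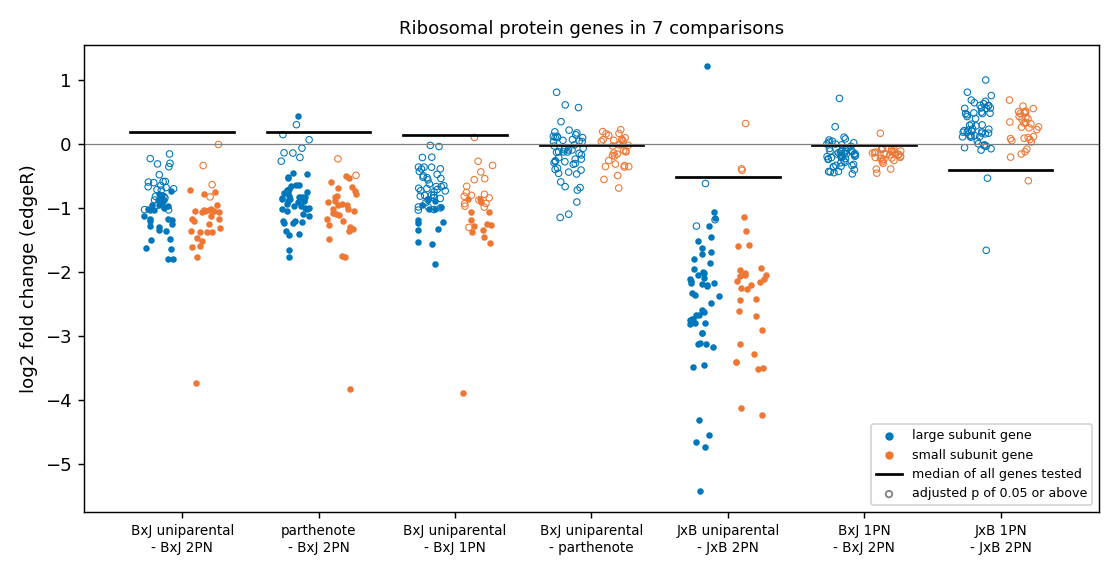
Log2 fold changes of the tested ribosomal protein genes in 7 comparisons, large subunit blue and small subunit orange; filled points passed an adjusted p of 0.05 and the black line is the median of all genes tested. Most members sit below that median where embryos without a paternal genome are set against 2PN or 1PN embryos, Rps4l lies lowest in the first 3 comparisons, and no point is filled where BxJ uniparental embryos are set against parthenotes or 1PN against 2PN.

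Within BxJ alone, 58 of 85 genes were lower in uniparental than in 2PN embryos and 0 higher, against 10.2% lower and 12.1% higher of all 24380 genes tested. Of the genes that averaged 10 CPM or more, 17.7% were lower here. Small subunit genes passed in 28 of 32 cases and large subunit genes in 30 of 53, with medians of -1.09 and -0.94. Rps4l (-3.73), Rpl13 (-1.80) and Rpl3 (-1.79) led. At the other end of those that passed were Rplp2 (-0.79), Rps28 (-0.75), Rplp1 (-0.73) and Rps7 (-0.71). For 30 of the 86 genes all 8 uniparental embryos lay below the 2PN median, as for 5.77% of all genes tested. For no member did all 8 lie below the lowest 2PN embryo, against 0.127% of all genes. Without embryo 10, the embryo with the high oocyte gene sum, 44 were lower. The share of all genes lower in that fit is not given.

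The same 8 embryos were set against the 11 BxJ 1PN embryos, which were scored alike under the microscope. Of 85 genes 28 were lower and 0 higher, against 5.67% and 5.07% of all genes, and 8.58% lower of those that averaged 10 CPM or more. The median was -0.84. Rps4l (-3.90 ± 0.523, edgeR adjusted p = 7.56e-09), Rpl3 (-1.87) and Rpl13 (-1.57) again had the lowest fold changes. For Rpl28 and Rpl41, among others, every uniparental embryo was below every 1PN embryo, which held for 0.476% of all genes tested. Rpl28, a large subunit protein, had 33.9, 68.3 and 79.6 CPM as lowest, median and highest of the uniparental embryos and 84.8, 137 and 187 CPM in 1PN embryos. Without embryo 10 the count fell to 11, and without the embryos under 2000000 counts, none of which belongs to either group, it was 48. The shares of all genes lower in these fits are not given, so these counts are not set against them.

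The C57BL/6 parthenotes were set against the same 43 BxJ 2PN embryos, so this comparison shares its controls with the BxJ one above. They differ from the hybrids in strain and in the way development started as well as in lacking a paternal genome, and these cannot be told apart. Of 85 genes 74 were lower and 1 higher, against 19.6% lower and 24.8% higher of all genes, with a median of -0.89. Of the genes that averaged 10 CPM or more, 31.7% were lower and 22.4% higher. Large subunit genes were lower in 44 of 53 cases and small subunit genes in 30 of 32. Rps4l had 0.382, 14.7 and 35 CPM as lowest, median and highest of the 31 parthenotes. All 31 lay below the BxJ 2PN median of 193 CPM, and 1 of the 43 2PN embryos was below the highest parthenote. The fold change was -3.83 ± 0.265 (edgeR adjusted p = 1.48e-25). Rps13 (-1.76) and Rpl19 (-1.76) followed.

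The member higher in parthenotes was Rpl22, whose product is known to be dispensable for most translation and can bind its partner Rpl22l1's mRNA. Rpl22 had 26.5, 198 and 287 CPM as lowest, median and highest in parthenotes and 27.9, 115 and 221 CPM in BxJ 2PN embryos, with 11 of 31 parthenotes above the highest 2PN embryo. Its fold change was 0.44 ± 0.187 (edgeR adjusted p = 0.0487). The call was lost with scaling factors computed without the members. It was also lost with a term for whether a library was listed in the earlier or the later run. All parthenotes are in the earlier run. Rpl22l1 was lower (-1.65, edgeR adjusted p = 2.06e-05). Its 31 values ran from 0.206 over a median of 4.6 to 14.1 CPM in parthenotes and from 0 over 11.4 to 42.7 CPM in BxJ 2PN embryos. Of the like-named forms, Rps4l, Rpl7l1 (-1.23), Rpl22l1 and Rpl39l (-0.46) were lower, 4 of 9, and Rpl10l (0.30), Rpl6l (0.15), Rpl32l (0.07), Rpl3l (-0.06) and Rps27l (-0.23) did not pass. Rpl17 (-0.87) and Rps12 (-0.50) were among those lower here.

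Set against each other, BxJ uniparental embryos and parthenotes showed 0 of 85 genes lower and 0 higher by edgeR, where 0.541% and 1.33% of all genes passed. At an unadjusted p under 0.05 there were 5, and DESeq2 called 1 lower, with the shares of all genes at these cuts not given. That gene was Rpl22, at -1.15 ± 0.344 (edgeR adjusted p = 0.0534), with 14.6, 74.8 and 172 CPM as lowest, median and highest in the uniparental embryos. All 8 were below the parthenote median. The median over the members was -0.11, and the SE of a member was 0.31 at the median. The approximate 95% intervals of the members had medians of -0.70 and 0.48 at their ends. For Rps4l the means were 16.8 and 15.2 CPM, and the ranges of the groups overlapped.

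**Figure D4:**
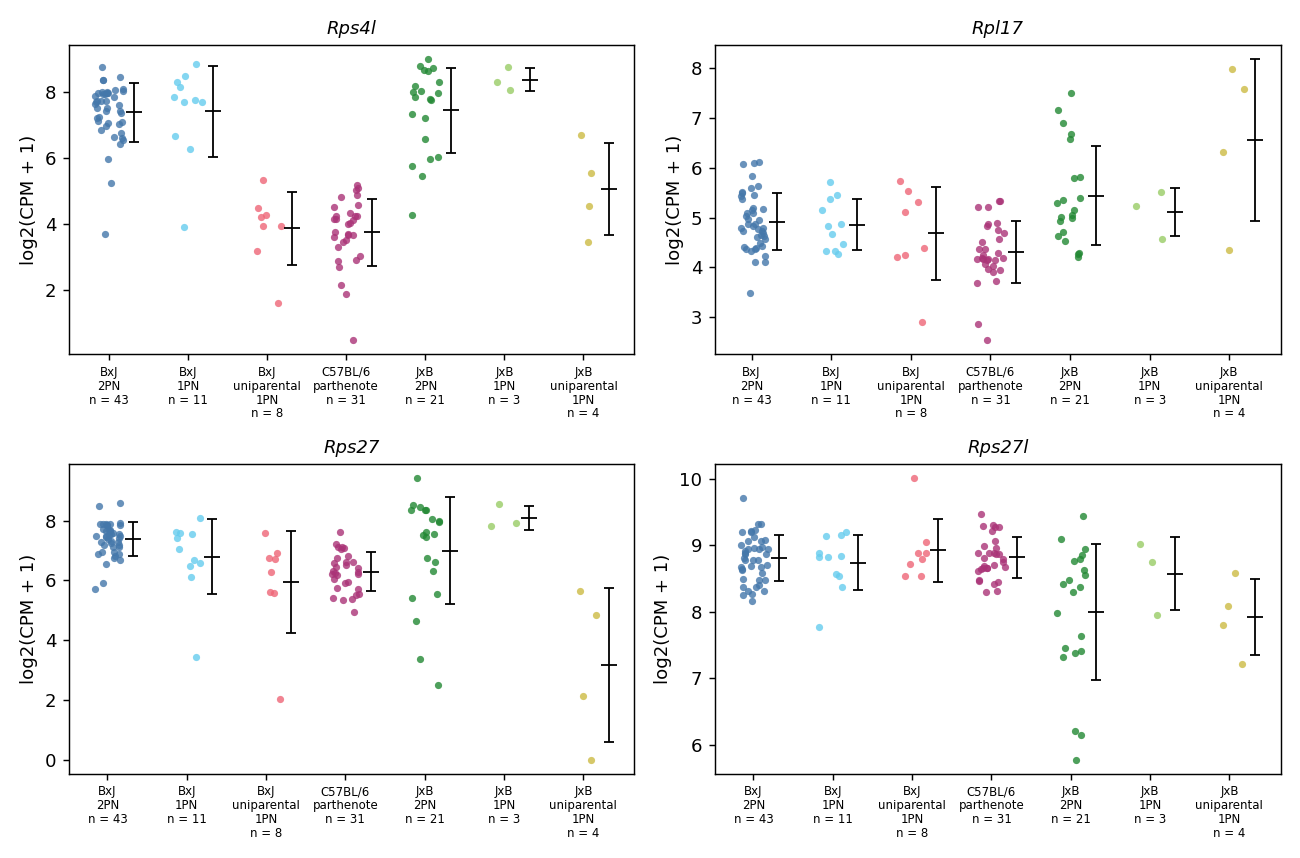
Log2(CPM + 1) of Rps4l, Rpl17, Rps27 and Rps27l, 1 point per embryo, by group, with the mean and 1 SD beside each group. Rps4l is low in BxJ uniparental embryos and parthenotes, Rps27 is lower in all 3 groups without a paternal genome, the Rps27l ranges of the BxJ groups overlap, and Rpl17 is high in JxB uniparental embryos 1 and 2 (249 and 190 CPM).

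Within JxB, 78 of 85 genes were lower in the 4 uniparental embryos than in the 21 2PN embryos and 1 was higher, against 20.7% and 11% of all genes and 36.6% lower of those that averaged 10 CPM or more. The median was -2.22, and -0.52 over all genes. Rpl6l (-5.42), Rpl12 (-4.74), Rpl6 (-4.66) and Rpl37a (-4.55) fell most. Rpl12, which sits at the base of the stalk, had 0, 0.142, 9.46 and 0 CPM in embryos 1, 2, 3 and 7. Rpl37a had 0.884, 0.378, 56.1 and 1.67 CPM in the same embryos, so embryo 3 stood above the others. The higher gene was Rpl17 (1.22 ± 0.384, edgeR adjusted p = 0.00906), with 249, 190, 78.7 and 19.5 CPM in embryos 1, 2, 3 and 7 and 17.6, 34.5 and 179 CPM as lowest, median and highest in 2PN embryos. Embryos 1 and 2 lay above all 2PN embryos and embryo 7 below their median. Without embryos 1 and 2, 29 genes were lower and 0 higher, against 5.86% and 3.12% of all genes, with a median of -1.39. The uniparental embryos kept in that fit, 3 and 7, both had under 2000000 counts. Rpl6l was then at -3.81, Rpl12 at -3.42, Rpl6 at -3.65, Rpl37a at -3.43 and Rpl17 at -0.19. Leaving out any single embryo of the 4 left 72 to 79 genes lower, and the shares of all genes lower in those fits are not given.

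The uniparental effect was tested against itself between the crosses. It was lower in JxB for 34 of 85 genes and higher for 1, against 13% and 3.64% of all genes and 20.2% lower of those that averaged 10 CPM or more. The median difference was -1.16, and -0.60 over all genes. Rpl6l (-5.19), Rpl12 (-4.15), Rpl37a (-3.87) and Rps23 (-3.60), a protein of the decoding centre, differed most, and Rpl17 the other way (1.52, edgeR adjusted p = 0.0249). Without JxB uniparental embryo 1 the count was 12, without embryo 2 it was 14, without both 7, and without embryo 3 it was 64. Without both, 2.91% of all genes and 6.83% of those that averaged 10 CPM or more were lower. The share of members, 8.24%, was near the latter. The 7 were Rpl37a, Rpl12, Rpl6, Rpl32, Rpl6l, Rpl27 and Rps23, named after their values were seen. With the embryos under 2000000 counts left out, among them JxB uniparental embryos 3 and 7, the count was 71. Embryos 1 and 2 were then the only JxB uniparental embryos in the fit. The shares of all genes are not given for this fit or for those with 1 embryo left out. The counts 12, 14, 64 and 71 are therefore not set against them. Of the 85 genes, 57 were lower in both crosses, 21 passed in JxB only and 1 in BxJ only. These counts include JxB uniparental embryos 1 and 2, without which 29 genes were lower in JxB. The overlap was not counted again without them, nor was it counted over all genes.

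No member passed in either direction in 1PN against 2PN embryos. With both crosses in the fit, 0 of 85 were lower and 0 higher by edgeR, against 0.0351% and 0.228% of all genes, 0 passed at an unadjusted p under 0.05, and DESeq2 called 0. The fold changes ran from -0.31 to 0.34, with a median of -0.05. The median of their approximate 95% intervals ran from -0.53 to 0.41. In BxJ alone 0 and 0 passed by edgeR and by DESeq2, against 0.0246% and 0.582% of all genes, and 0 had an unadjusted p under 0.05. In JxB, with 3 1PN embryos, 0 and 0 passed by edgeR and by DESeq2, against 0.0164% and 0.0205%, and 1 had an unadjusted p under 0.05. Rps4l had 13.8, 212 and 451 CPM as lowest, median and highest in BxJ 1PN embryos and 311, 426 and 263 CPM in JxB 1PN embryos 4, 5 and 6, and these ranges overlapped those of 2PN embryos.

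Between the 2PN embryos of the crosses, 6 genes were lower and 7 higher in JxB than in BxJ, against 21.1% and 19.1% of all genes. Rpl22 (-0.89), Rpl3l (-0.73), Rpl7l1 (-0.64), Rpl5 (-0.58), Rps27l (-0.58) and Rps15 (-0.54) were lower. Rpl7a (1.21), Rpl3 (0.78), Rpl8 (0.74), Rpl17 (0.72), Rps12 (0.67), Rpl21 (0.57) and Rpl13a (0.39) were higher. For Rpl22 the lowest, median and highest values were 6.08, 47.0 and 184 CPM in JxB and 27.9, 115 and 221 CPM in BxJ, and 19 of 21 JxB embryos were below the BxJ median. JxB libraries were shallower, 7 of the 21 having under 2000000 counts against 1 of the 43. With the log2 of the total counts in the fit 0 were lower, and without the shallow embryos 2 were lower and 16 higher.

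The members varied together between the embryos of a group. Over all pairs of the 83 members that averaged 10 CPM or more, the median Pearson r of log2(CPM + 1) was 0.43 in BxJ 2PN embryos (n = 43), 0.73 in JxB 2PN embryos (n = 21) and 0.47 in parthenotes (n = 31). Over pairs of all genes at that level it was 0.04, 0.02 and 0.01. Pairs within the small subunit had higher medians (0.52, 0.78 and 0.55) than pairs within the large (0.36, 0.69 and 0.43). The genes of an embryo share its library, its depth and its scaling, so these are descriptions. Rps25 and Rps21 followed the mean of the other members most closely in BxJ 2PN embryos (r = 0.89 both), and Rps13 had 0.88. Rpl17 followed it least in JxB 2PN embryos (r = -0.48), with -0.01 and 0.11 in BxJ 2PN embryos and parthenotes. Rps12 had 0.17, -0.03 and 0.08 in BxJ 2PN, JxB 2PN and parthenote embryos, and Rps4l had 0.09, 0.60 and 0.36.

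**Figure D5:**
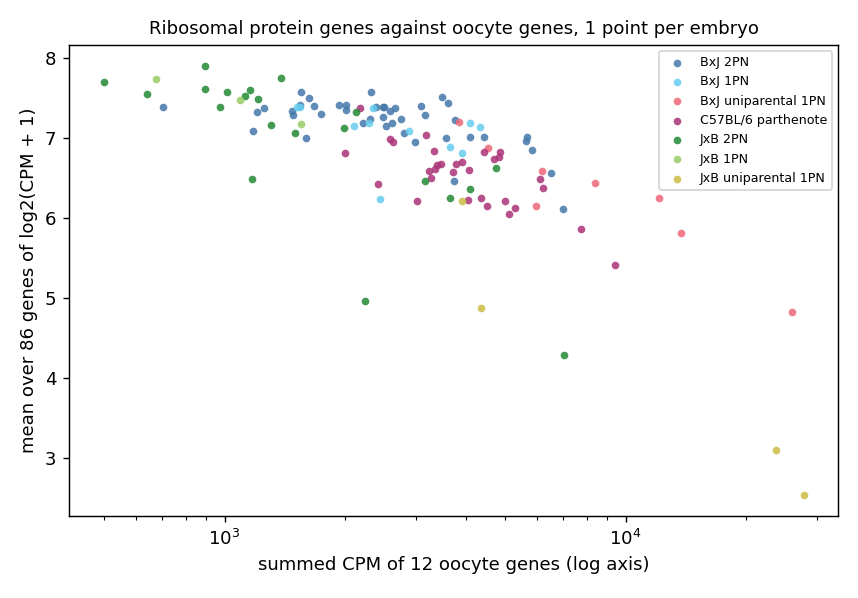
Mean log2(CPM + 1) of the 86 ribosomal protein genes against the summed CPM of 12 oocyte genes on a log axis, 1 point per embryo, coloured by group. Embryos with more oocyte transcripts have lower ribosomal protein means, with r of -0.61, -0.76 and -0.70 within BxJ 2PN, JxB 2PN and parthenote embryos, and JxB uniparental embryos 1 and 2 (27795 and 23729 CPM) lie at the far right.

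Transcripts of oocyte genes varied the other way. The correlation between an embryo's ribosomal protein mean and the log2 of its oocyte gene sum was -0.61 in BxJ 2PN embryos (n = 43), -0.76 in JxB 2PN embryos (n = 21) and -0.70 in parthenotes (n = 31), and -0.57, -0.68 and -0.53 without the 2 embryos farthest from the median sum. With the log2 of the total counts it was 0.08, 0.40 and 0.69, and 0.33, 0.24 and 0.55 without the 2 farthest. Both measures are shares of the same library. The oocyte gene sum was 702, 2494 and 6966 CPM as lowest, median and highest in BxJ 2PN embryos and 3834, 7292 and 26047 CPM in BxJ uniparental embryos. In parthenotes it was 2001, 3902 and 9396 CPM, and in JxB uniparental embryos 27795, 23729, 3904 and 4357 CPM for numbers 1, 2, 3 and 7. Of the 12 oocyte genes 8 were higher in uniparental than in 2PN embryos over both crosses and 0 lower, where 18.3% of all genes were higher. Among the 8 were Btg4 (2.87), a factor in the clearing of maternal mRNA, Zbed3 (2.70), Bmp15 (2.28) and Npm2 (1.00). Without JxB uniparental embryos 1 and 2, 7 were higher (Btg4 at 1.84), and without BxJ uniparental embryo 10 as well, 4 (Btg4 at 1.42). Of all genes 12.7% and 9.13% were higher in those fits. In parthenotes 2 of the 12 were higher, where 24.8% of all genes were. Of the 12 2-cell stage genes 3 were lower in uniparental embryos, Obox6 (-1.85), Obox3 (-1.64) and Tcstv1 (-1.15), and 0 higher, and without JxB uniparental embryos 1 and 2 there were 2 lower and 1 higher. In parthenotes 6 were higher and 2 lower. Of all genes 15.8% were lower in uniparental embryos, and 27.5% of those that averaged 10 CPM or more. Their part in the ribosomal protein differences was not tested.

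Other genes of the pathway were taken from lists. Of 20 translation genes with TOP transcripts, 11 were lower in uniparental than in 2PN embryos over both crosses and 0 higher, with a median of -0.95. They include Hnrnpa1 (-1.17), an RNA-binding protein, Naca (-1.0), which meets nascent chains at the ribosome, Npm1 (-0.96), a nucleolar chaperone, and Eef2 (-0.95), the elongation factor of translocation. Of 15 chaperones and importins of ribosomal proteins 11 were lower and 1 higher, the lower ones including Grwd1 (-1.88), which escorts Rpl3, Pdcd2l (-1.43), which escorts Rps2, and the importins Ipo7 (-1.31) and Kpnb1 (-0.93). The higher one was Tnpo1 (1.07), another importin. Of 23 regulators of ribosomal protein mRNA 11 were lower and 1 higher. Tbpl1 (-1.70), a relative of the TATA-binding protein known from ribosomal protein gene promoters in flies, Tial1 (-1.49), which binds TOP mRNA, and Larp4 (-1.07) were lower, and Max (1.5), the partner of MYC, was higher. In parthenotes the lower and higher counts were 12 and 2 of 20, 11 and 0 of 15, and 9 and 3 of 23. The share lower of all genes was 15.8% in uniparental embryos and 19.6% in parthenotes, and of those that averaged 10 CPM or more 27.5% and 31.7%. Without JxB uniparental embryos 1 and 2 the uniparental counts were 10 and 0 of 20, 10 and 0 of 15, and 11 and 3 of 23. Without BxJ uniparental embryo 10 as well they were 9 and 0, 7 and 0, and 7 and 0. In these fits 12.8% and 9.95% of all genes were lower. Of those that averaged 10 CPM or more, 23.4% and 18.3% were lower.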

How the data were processed

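RNA was measured in single 2-cell mouse embryos, in 125 libraries made with a SMART-Seq v4 low input kit and a Nextera XT kit, per the labels' protocols. The authors deposited estimated counts by gene without depth scaling, and 28.4% of those above 0 were not whole. Per the submitters' processing notes, HISAT2 2.0.5, featureCounts 2.0.0 and GRCm38 were used. Which annotation and strand setting were used, and how shared reads were handled, these notes and labels do not say. This table gave 43421 gene identifiers, 43266 of which matched a symbol. Embryos were grouped by their labels for strain, pronuclei and in silico type, and 4 libraries (1 labelled dead, 3 of low quality) were left out. Replicate numbers in the titles only name embryos.

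The counts were rounded and tested by edgeR's quasi-likelihood F test (edgeR 4.0.16 in R 4.3.3, TMM factors, filterByExpr) with Benjamini-Hochberg adjustment over all genes tested. Comparisons over both crosses used 6 groups with cross as a term, the others the means of all 7 groups. Alternatives used DESeq2 1.42.0, limma 3.58.1 and embryos left out, some of them chosen after seeing the data. CPM, log2(CPM + 1) means per embryo and figures were made in Python 3.11.15. Approximate intervals use the SE of the fit. The test was checked on simulated data. Named genes are, for each comparison, the 4 most and the 4 least lowered members past the threshold, those against the majority, and the members of the role lists, apart from a few genes that are not reported here. The members, lists and rule were chosen with earlier results of these data known. Chromosomes, positions and promoter sequences come from RefSeq tables of GRCm38.p6, matched by symbol.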

Additional observations from a re-analysis of the deposited data

Results flagged for a closer look

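In a group of 4 to 10 embryos, a value was singled out when its gap to the nearest other was large against the group's range by Dixon's test. This was tried for 98 combinations of a gene or measure and a group and gave 7 such values, where chance gives about 1 in 20. BxJ uniparental embryo 10 accounts for 5 of them. Its oocyte gene sum of 26047 CPM and its Rps27l level of 1035 CPM were the highest of the 8 embryos. Its Rps27 (3.11 CPM), Rpl36a (3.55 CPM) and Rpl13 (5.62 CPM) levels were the lowest. JxB uniparental embryo 3 was the highest of 4 for Rpl22l1 (10.8 CPM) and Rpl12 (9.46 CPM).

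The uniparental effect differed between the crosses for 35 members at an edgeR adjusted p under 0.05, as the interaction of cross and group. The named members among them were Rpl6l (-5.19), Rpl12 (-4.15), Rpl37a (-3.87) and Rps23 (-3.60), lower in JxB, and Rpl17 (1.52), higher in JxB. JxB uniparental embryos 1 and 2, which carry the high oocyte and low 2-cell gene sums, take part in each of these values, and without them 7 members passed. In that fit 8.24% of the members and 6.83% of genes that averaged 10 CPM or more were lower.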

How the results depend on the processing

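Over both crosses the count of members lower in uniparental than in 2PN embryos ran from 59 to 81 of 85 under the alternatives run, 73 with DESeq2's size factors in edgeR, 71 without JxB uniparental embryos 1 and 2 together and 59 without these and BxJ uniparental embryo 10. Those size factors moved the median of all genes from 0.19 to 0.36. Without the embryos under 2000000 counts 1 member was higher. In that fit embryos 1 and 2 were the only JxB uniparental embryos. The 1PN against 2PN counts were 0 under every alternative run. Counts of members in this section are given without the share of all genes under each alternative.

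In BxJ, the fit of uniparental against 2PN embryos with replicate number as a block used pairs that share a number and called 19 lower, while the same embryos without the block gave 15. Same-numbered embryos did not deviate together (r from -0.24 to 0.34 over 8 pairs, and 1 pair best with its own number), and the block fit of 1PN against 2PN gave 0. In JxB, 29 were lower and 0 higher without embryos 1 and 2, a fit that kept only shallow uniparental embryos of that cross. Leaving out 1 embryo gave 72 to 79 lower and 0 to 1 higher. For the difference between crosses the lower count was 52 with limma voom and 71 without the shallow embryos. The latter fit kept embryos 1 and 2 as the only JxB uniparental embryos. The lower count was 7 without embryos 1 and 2 and 12 to 64 with 1 embryo left out. The higher count was 0 without embryos 1 and 2 and 0 to 1 otherwise. Uniparental against 1PN in BxJ gave 11 lower without embryo 10 and 48 without shallow embryos.

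In parthenotes against BxJ 2PN embryos, the higher count was 2 with DESeq2, with its size factors and without shallow embryos (Rpl22 and Rpl10l). It was 0 with TMM factors computed without the members and with the run of listing (earlier or later) as a term. The embryo mean differed by -1.18 over the members with at least 0.9 of values whole, against -0.67. BxJ uniparental embryos against parthenotes gave 1 lower (Rpl22) with DESeq2, its size factors, no filter on low counts, limma voom, depth as a term and edgeR's bias-adjusted dispersion, and 2 without shallow embryos. JxB against BxJ 2PN embryos gave 16 lower and 4 higher with limma voom, 0 lower with depth as a term, and 2 lower and 16 higher without shallow embryos.

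The sign of Rps27l over both crosses turned to 0.16 with DESeq2 and with its size factors, 0.11 without shallow embryos, and ran from -0.061 to 0.065 with 1 JxB uniparental embryo left out, being above 0 without embryo 3 (0.039) and embryo 7. Rpl17 in JxB turned to -0.19 without embryos 1 and 2. Of the values of named genes under alternatives, 788 kept their direction and side of the threshold, 78 lost the call, 2 gained it and 6 changed sign. For values that moved, the cause was not tested, apart from the smaller number of embryos where some were left out. Leaving out the shallow embryos, the dispersion setting, embryo 10, embryos 1 and 2 together and all 3 of them were chosen after seeing the data.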

Other observations

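The 4 libraries left out of the comparisons were measured in the same way. The library labelled dead, a BxJ 1PN embryo, had a ribosomal protein mean of 1.52 (log2(CPM + 1)), an oocyte gene sum of 22082 CPM and a 2-cell gene sum of 56.5 CPM. Beside it stand JxB uniparental embryos 1 and 2, with 2.54 and 3.09, 27795 and 23729 CPM, and 53.7 and 267 CPM. Mitochondrially encoded genes took 22.4% of the counts in the library labelled dead and 2.85% and 2.94% in those 2 embryos.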
